A study of Macaca fascicularis with 44 samples.

Results

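A set of 17 genes was selected on saline RNA levels in cynomolgus macaques (Macaca fascicularis), being low in the anterior cingulate cortex (ACC) and higher to a like extent in the posterior dentate gyrus (pDG) and the basolateral amygdala (BLA). The 17 genes came from 17293 identifiers in the count tables. A gene was a member when its highest ACC value was at most 0.5 times the lowest value in pDG and in BLA. The pDG and BLA means also had to reach 2 CPM (counts per 1000000 gene reads) and lie within 1.5-fold of each other. These conditions used 17 saline libraries of the 3 regions, without BLA saline replicate 5. The separation alone was met by 40 genes, the separation and the minimum means by 26, and the whole rule by 17. The saline values of ACC, pDG and BLA are therefore a description of the choice and carry no test.

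Total RNA of 4 brain regions was sequenced from female macaques that received either saline or betamethasone, a synthetic glucocorticoid, in 44 libraries. With betamethasone there were 5 libraries of the anterior dentate gyrus (aDG), 5 of pDG, 4 of BLA and 6 of ACC, and with saline 6 of each region. Age, dose and duration were not given in the sources used here. The labels do not say that replicates are separate animals, nor which regions share an animal, so a p-value here reflects only how far libraries of a group spread, and part of that spread may be technical.

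The dentate gyrus is the part of the hippocampal formation where densely packed granule cells receive input from the entorhinal cortex. The basolateral amygdala is a nuclear group known for its part in emotional learning, and the anterior cingulate cortex is a layered cortical area of the medial frontal wall. Glucocorticoids enter cells and act through the glucocorticoid receptor, a transcription factor that is present in all of these regions.

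The tables give Ensembl-style identifiers without gene names, and 0 of them matched the gene table used here. No function is therefore given for any member, and the labelled regions could not be checked against marker genes. The 17 members were ENSMFAG00000000316, ENSMFAG00000000639, ENSMFAG00000001996, ENSMFAG00000002181, ENSMFAG00000002663, ENSMFAG00000004023, ENSMFAG00000008727, ENSMFAG00000017146, ENSMFAG00000030157, ENSMFAG00000032486, ENSMFAG00000034483, ENSMFAG00000036444, ENSMFAG00000038247, ENSMFAG00000041121, ENSMFAG00000041542, ENSMFAG00000041988 and ENSMFAG00000045726. CPM is not corrected for gene length, so levels are compared between libraries and not between genes.

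The libraries held 28449737 to 83322595 reads in genes, with a median of 44944904. A member had 6 to 322117 reads in a library (median 772.5). The fewest were the 6 reads of ENSMFAG00000041542 in ACC saline replicate 3, or 0.194 CPM (95% exact Clopper-Pearson interval 0.0711 to 0.422, counting error only). The share of mapped reads outside genes was 24.5% to 37.2%. Each member stood on 1 row, and its antisense reads were 0.0796% to 4.76% of its reads on both strands. The unstranded count of ENSMFAG00000041988 was 0.483 times its count on the strand used. BLA saline replicate 5 and aDG saline replicate 5 stood apart from their groups and are described separately where they touch a result.

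In the saline libraries that chose the members, the pDG mean was 3.08 to 7.61 times the ACC mean (median over members 5.17). The BLA mean, without replicate 5, was 3.34 to 8.48 times the ACC mean (median 5.61). The tissue was bulk, so fewer cells of a type and less RNA per cell cannot be told apart.

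ENSMFAG00000041542 had one of the widest gaps. Its CPM in the 6 ACC saline libraries ran from 0.194 to 0.932 (median 0.678), and in the 6 pDG libraries from 3.03 to 6.52 (median 4.61). The 5 BLA libraries of the rule had 5.02, 6.05, 5.84, 4.22 and 6.499 CPM. The lowest pDG library thus stood 3.25 times above the highest ACC library. ENSMFAG00000038247 had a gap of 3.24 times and tight groups. Its ACC libraries ran from 6.81 to 9.13 CPM (median 8.34) and its pDG libraries from 30.9 to 36.4 CPM (median 34.1), and its 5 BLA libraries had 32.7, 30.4, 39.2, 35.3 and 29.5 CPM.

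The members with most reads were ENSMFAG00000041988 and ENSMFAG00000041121. ENSMFAG00000041988 ran from 400.3 to 1047 CPM in ACC saline (median 689) and from 2533 to 5248 CPM in pDG saline (median 3841). Its 5 BLA libraries had 5204, 3435, 7412, 2317 and 4560 CPM. The groups were wide but did not meet, with a gap of 2.21 times. ENSMFAG00000041121 ran from 34.9 to 83.9 CPM in ACC and from 169.5 to 396 CPM in pDG.

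Near the threshold of 2 times, ENSMFAG00000034483 and ENSMFAG00000000316 were just inside, each with a gap of 2.01. ENSMFAG00000031132 (1.98) and ENSMFAG00000032487 (1.97) were just outside. The member closest to the limit on the means was ENSMFAG00000030157, whose BLA mean was 1.48 times its pDG mean.

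**Figure D1:**
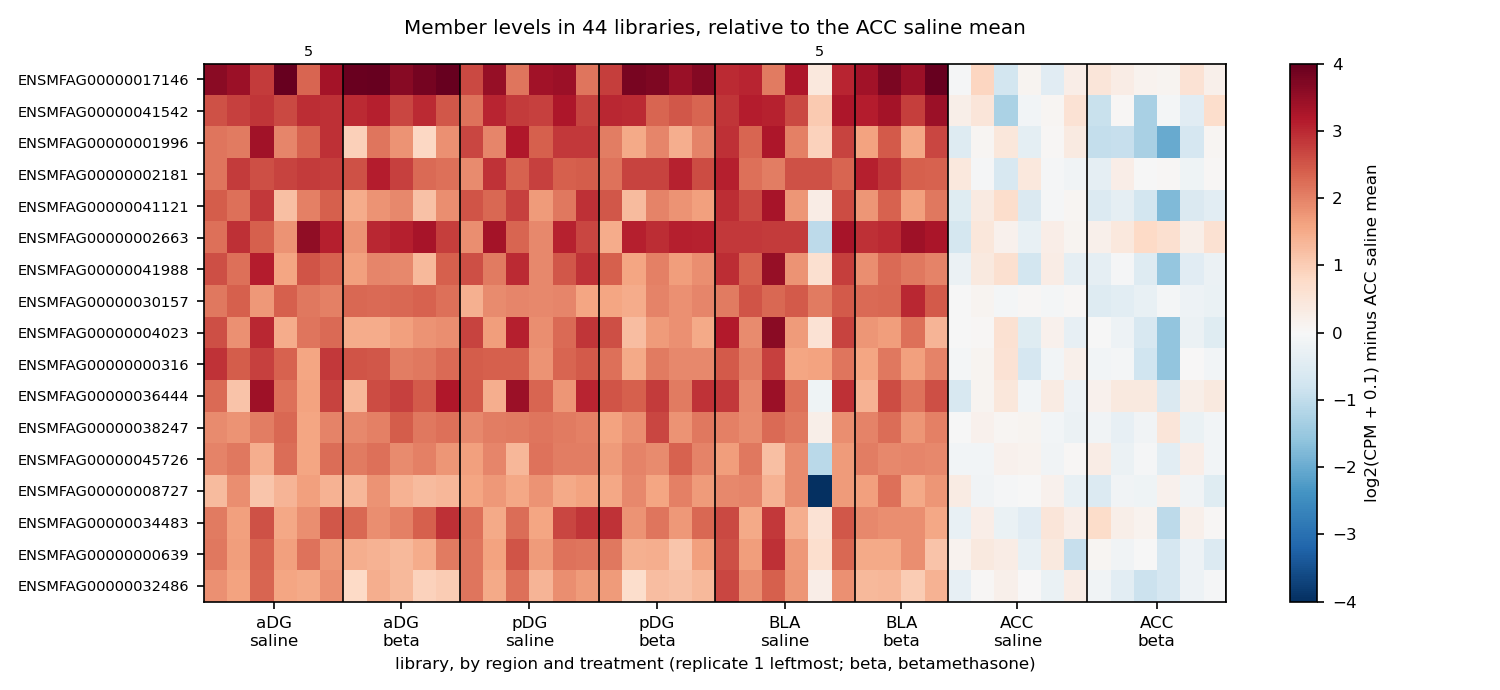
Level of each member (rows) in each of the 44 libraries (columns, by region and treatment), as log2(CPM + 0.1) minus the mean of the ACC saline libraries. The 12 ACC columns are pale and the other regions red, apart from the column marked 5 in BLA saline, where 15 of 17 members lie below the other 5 BLA saline libraries.

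**Figure D2:**
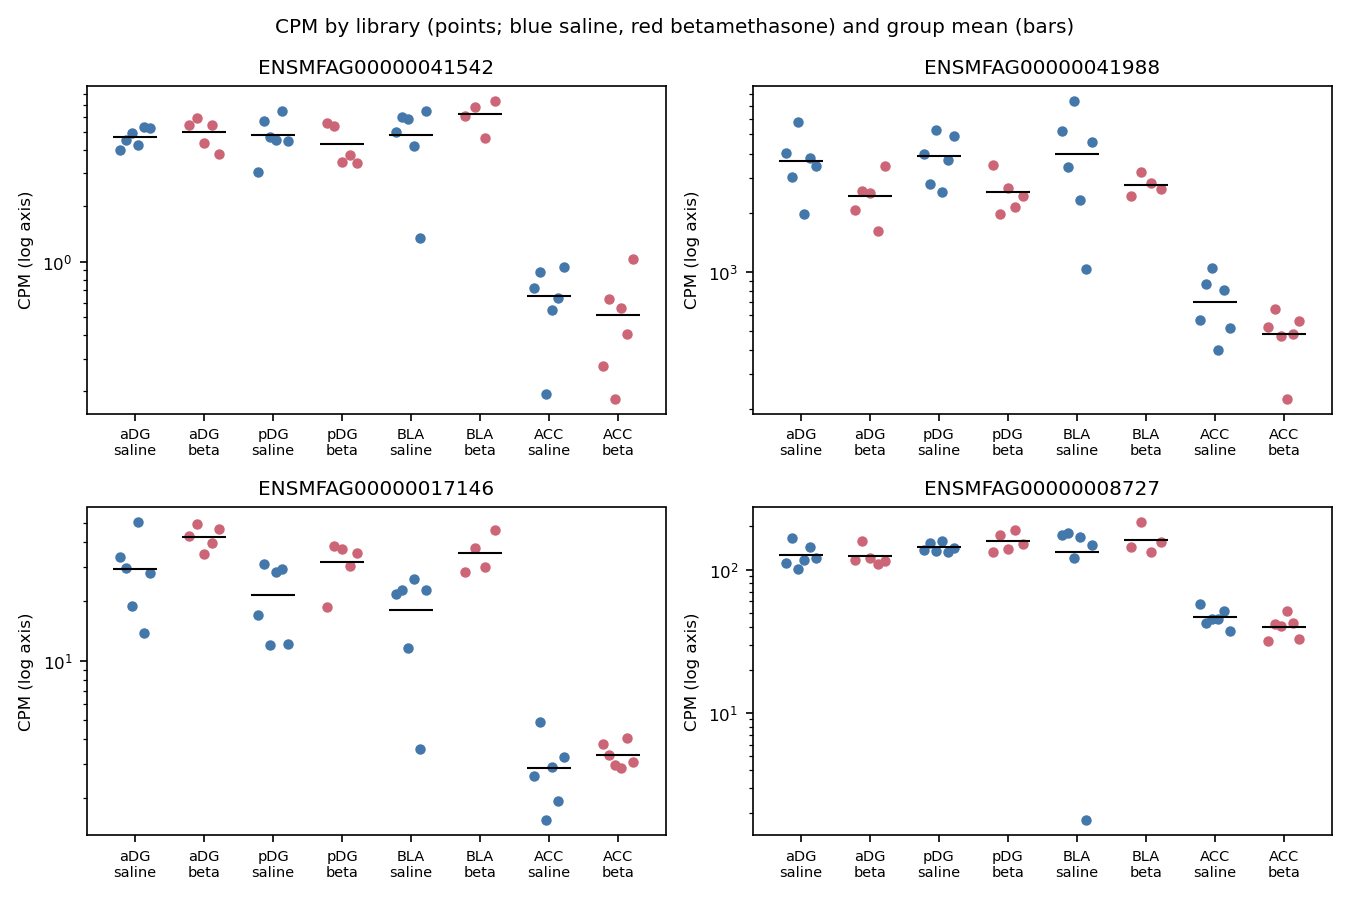
CPM on a log axis of 4 members in each library (points, blue for saline and red for betamethasone), with the group mean as a bar. The ACC points lie below those of the other regions, except that BLA saline replicate 5 reaches or passes below the ACC range in 3 panels and falls to 1.78 CPM for ENSMFAG00000008727.

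The anterior dentate gyrus took no part in the choice, although the ACC saline libraries did. In saline, the aDG mean was 2.72 to 10.2 times the ACC mean (median over members 4.84). All 17 members had every aDG library above every ACC library, as had 5.16% of all genes. At a gap of at least 2 times the count was 12 of 17, against 0.301% of all genes. Without aDG saline replicate 5 the counts were also 17 and 12, against 8.51% and 0.758%. Low values in the ACC saline libraries were part of the choice, so these counts are not independent of it. ENSMFAG00000017146 had the largest ratio of means, with 13.7 to 50.3 CPM in aDG (median 28.7) and 1.55 to 4.88 CPM in ACC (median 2.73). ENSMFAG00000008727 had the smallest, with 100.2 to 165 CPM in aDG (median 119) and 37.4 to 57.6 CPM in ACC (median 45.1). Both members had separate groups.

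BLA saline replicate 5, left out by the rule, did not show the pattern of the other BLA libraries. It lay below all 5 of them for 15 members and inside their range for 2, while over all genes 25.2% lay below and 26.1% above. The other 5 libraries had been used to choose the members. Its ratio to their median was 0.0105 to 1.18 (median over members 0.229). Set against the ACC saline libraries, it was above their range for 8 members (25.6% of all genes), inside it for 6 and below it for 3. At a gap of at least 2 times it stood above ACC for 3 members, against 4.88% of all genes. The ACC saline libraries had also been used to choose the members, for their low values. These counts against ACC are therefore not independent of the choice. ENSMFAG00000008727 had 1.78 CPM there and 120.1 to 179.9 CPM in the other 5 libraries. ENSMFAG00000030157 was close to its group, with 292.5 CPM against 293 to 394 CPM. Keeping this library in the rule would have left 3 members. The labels give the library as BLA like the rest.

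For the members, the aDG saline replicate 5 library was less far from its group. It lay inside the range of the other 5 aDG saline libraries for 11 members, below it for 4 and above it for 2. Over all genes 29.0% lay below and 21.2% above, close to the 25.2% and 26.1% of BLA saline replicate 5. The other 5 aDG libraries, unlike those of BLA, had not chosen the members. The ratio of aDG saline replicate 5 to the median of its group's other libraries was 0.443 to 2.24 (median 0.926). ENSMFAG00000000316 was the lowest by that ratio, with 29.7 CPM against 51.1 to 73.6 CPM.

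The 20 betamethasone libraries took no part in the choice, so the pattern was tested there. All 17 members were lower in ACC than in pDG, in BLA and in aDG (edgeR quasi-likelihood test, Benjamini-Hochberg adjusted p under 0.05). Among the 14962 genes tested, 22.2% were lower in ACC than in pDG, 18.6% than in BLA and 25.1% than in aDG. All 17 were also at least 2-fold lower, against 5.41%, 4.26% and 5.24% of all genes. The median log2 difference of the members was −2.31 against pDG, −2.25 against BLA and −2.30 against aDG, and over all genes it was −0.01, 0.03 and −0.02. The members ranged from −3.25 to −1.66 against pDG, from −3.59 to −1.68 against BLA and from −3.64 to −1.48 against aDG. Each of these differences passed the test.

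ENSMFAG00000017146 and ENSMFAG00000041542 were the furthest below, 10.03-fold and 10.01-fold lower in ACC on the mean over pDG and BLA. ENSMFAG00000017146 had 2.86 to 4.05 CPM in the 6 ACC betamethasone libraries (median 3.19). Its 5 pDG libraries had 18.6, 38.3, 37.0, 30.2 and 35.0 CPM, and its 4 BLA libraries 28.3, 37.3, 29.7 and 46.0 CPM. No library of pDG or BLA came near the ACC range. The log2 difference was −3.25 ± 0.17 (SE) against pDG (edgeR adjusted p = 1.52e-11) and −3.40 ± 0.18 against BLA (adjusted p = 3.79e-11).

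ENSMFAG00000041542 had 0.182 to 1.04 CPM in ACC (median 0.486). Its 5 pDG libraries had 5.59, 5.39, 3.42, 3.78 and 3.39 CPM, and its 4 BLA libraries 6.09, 6.86, 4.64 and 7.36 CPM. The lowest ACC library rested on 9 reads (95% exact Clopper-Pearson interval 0.0834 to 0.346 CPM), which lay below every pDG and BLA value. The log2 difference was −3.06 ± 0.31 against pDG (edgeR adjusted p = 8.55e-08) and −3.59 ± 0.32 against BLA (adjusted p = 3.47e-08).

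The smallest differences were those of ENSMFAG00000032486 and ENSMFAG00000000639, 3.18-fold and 3.51-fold. ENSMFAG00000032486 had 1.13 to 2.08 CPM in ACC (median 1.73). Its pDG libraries had 7.19, 3.59, 5.23, 5.002 and 5.45 CPM, and its BLA libraries 5.42, 5.61, 4.50 and 5.82 CPM. The groups stayed apart, with log2 differences of −1.66 ± 0.19 against pDG (edgeR adjusted p = 3.57e-07) and −1.68 ± 0.19 against BLA (adjusted p = 9.45e-07). For ENSMFAG00000000639 they were −1.84 ± 0.20 (edgeR adjusted p = 1.91e-07) and −1.78 ± 0.20 (adjusted p = 8.32e-07).

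**Figure D3:**
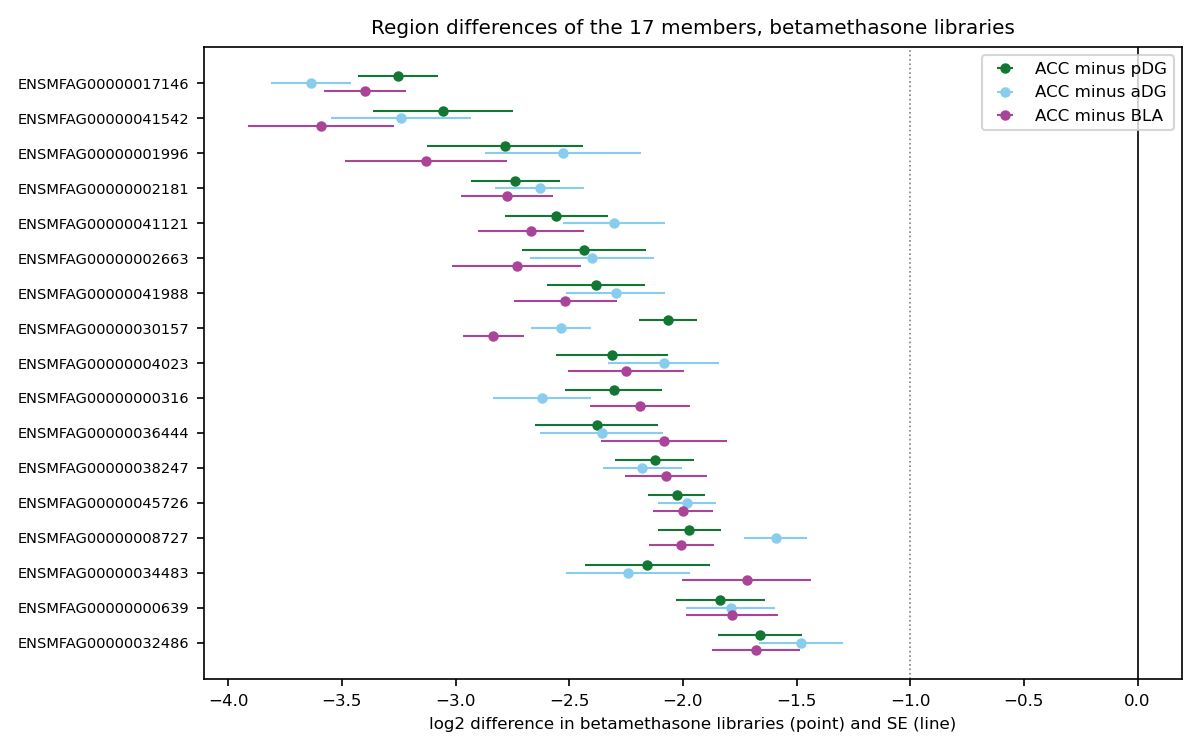
Log2 difference of ACC from pDG, aDG and BLA in the betamethasone libraries for each member (points, with the SE as a line), ordered by the mean against pDG and BLA. All points lie left of the dotted line at a 2-fold difference, from −3.64 to −1.48.

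The ranges of the betamethasone libraries showed the same separation library by library. All 17 members had every ACC library below every pDG and BLA library, as had 6.52% of all genes. A gap of at least 2 times was found for 14 of 17, against 0.422% of all genes (73 genes). The other 3 were ENSMFAG00000002663 (gap 1.66), ENSMFAG00000032486 (1.73) and ENSMFAG00000034483 (1.77), named after their values were seen. For ENSMFAG00000002663 a single pDG library set the gap, since the 5 had 2.65, 8.23, 7.47, 8.34 and 8.14 CPM. Against each region alone all 17 were also separate from ACC, as were 12.4% of all genes for pDG, 12.9% for BLA and 14.4% for aDG. Against pDG alone 15 members had the gap (1.38% of all genes), against BLA alone 16 (1.18%) and against aDG 14 (1.32%). Over all 44 libraries, 6 members had every ACC library below every library of the other regions (0.937% of all genes), and 2 had the gap of 2 times (0.0289%). The 44 include the 17 saline libraries that chose the members, so these 2 counts are not independent of the choice.

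Applied to the betamethasone libraries of ACC, pDG and BLA, the whole rule named 42 genes. Both lists held 13 genes, which was 76.5% of the saline list and 31.0% of the betamethasone list. The lists rested on unequal numbers of libraries, 17 in saline and 15 in betamethasone. The saline list also moved to 16 to 32 genes with a saline library left out. It held 32 without ACC saline replicate 3 and 28 without BLA saline replicate 4. The reason for the unequal lengths was not tested.

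The rule kept the pDG and BLA means close in saline, and in betamethasone 1 member differed between them. ENSMFAG00000030157 had 206, 194, 274, 245 and 268 CPM in pDG and 335, 336, 561 and 376 CPM in BLA. Every BLA library was above every pDG library. The log2 difference was 0.77 ± 0.14, higher in BLA (edgeR adjusted p = 0.000279). Among all genes 11.4% were higher in BLA and 11.5% lower. The member was also the one closest to the limit on means in saline.

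No other member passed the test between BLA and pDG. ENSMFAG00000041542 had the next lowest p among those with a higher BLA value (0.53 ± 0.31, edgeR adjusted p = 0.237). ENSMFAG00000034483 and ENSMFAG00000036444 had the lowest among those with a lower one, −0.44 ± 0.29 (edgeR adjusted p = 0.322) and −0.30 ± 0.29 (adjusted p = 0.514). A p that misses the threshold does not show that these levels are equal, and the SE of 0.14 to 0.31 of the named members sets what could be seen.

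Between aDG and pDG in betamethasone, 0 members passed the edgeR test, against 1.44% of all genes higher and 1.24% lower in aDG. At an unadjusted p under 0.05 there were 3 members, against 16.6% of all genes. DESeq2 called 1 member higher in aDG, ENSMFAG00000030157, against 2.71% of all genes higher and 2.53% lower. That member had 341, 334, 340.5, 351 and 321 CPM in aDG, all above its 194 to 274 CPM in pDG. Its log2 difference was 0.47 ± 0.13 (edgeR adjusted p = 0.0593, DESeq2 adjusted p = 0.0204). It also passed in edgeR with upper-quartile scaling (adjusted p = 0.043) and without BLA betamethasone replicate 3 (adjusted p = 0.017). The call therefore depended on the tool, the scaling and that library. ENSMFAG00000017146 had a difference of 0.38 ± 0.17 (edgeR adjusted p = 0.25). The lowest p with a lower aDG value were those of ENSMFAG00000008727, with −0.38 ± 0.14 (edgeR adjusted p = 0.168), and of ENSMFAG00000041121, with −0.25 ± 0.23 (adjusted p = 0.633).

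Betamethasone was then compared with saline within each region. In pDG, BLA and ACC the saline arm holds the libraries on which the members were selected. The members' counts, signs and p-values there, and in any average over regions, are therefore not independent of the choice, and are given as a description. Only aDG had both arms outside the rule. Its saline libraries may still share animals with those of the rule. ENSMFAG00000041988, for example, was highest in saline replicate 3 of every region (5801 CPM in aDG, 5248 in pDG, 7412 in BLA, 1047 in ACC). The aDG comparison may therefore not be fully independent of the choice either. In edgeR, 0 members passed the adjusted threshold in aDG, pDG, BLA or ACC. Among all genes the higher and lower calls were 0.00689% and 0% in aDG, 0.00693% and 0% in pDG, 0% and 0% in BLA, and 0.206% and 0.124% in ACC. The members' median log2 change was −0.03 in aDG, −0.01 in pDG, −0.20 in BLA and −0.26 in ACC. Over all genes it was within 0.02 of 0 in each region. At an unadjusted p under 0.05, aDG had 6 members with lower values (3.71% of all genes in either direction), pDG 7 (8.72%), BLA 1 with a higher value (10.2%) and ACC 3 lower and 1 higher (16.0%). The 6 in aDG and the 7 in pDG all lay among 9 members, described below, whose levels were correlated within groups. They are therefore not separate observations. Without BLA saline replicate 5, edgeR again called 0 members in BLA. Their median was then −0.36, with 5 lower and 1 higher at an unadjusted p under 0.05 (13.1% of all genes in either direction). DESeq2 called 1 member lower in pDG and 1 lower in ACC, and 0 in aDG and BLA. Over all genes it called 0.402% lower and 0.166% higher in pDG, 1.36% and 2.50% in ACC, 0.159% and 0.0896% in aDG, and 0.451% and 0.0478% in BLA.

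The member called by DESeq2 in pDG was ENSMFAG00000001996. It had 5.74 to 13.7 CPM in saline (median 10.1) and 6.11, 4.16, 5.67, 3.995 and 5.79 CPM in betamethasone. The groups overlapped, with 1 saline library, at 5.74 CPM, inside the betamethasone range. The log2 change was −0.88 ± 0.20 (edgeR adjusted p = 0.297, DESeq2 adjusted p = 0.0127). In aDG its change was −0.98 ± 0.32 (edgeR adjusted p = 1) and in ACC −0.92 ± 0.34 (edgeR adjusted p = 0.21). ENSMFAG00000041988 had the next lowest p in pDG, with a change of −0.59 ± 0.19 (edgeR adjusted p = 0.44).

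The member called by DESeq2 in ACC was ENSMFAG00000030157. It had 64.7 to 73.8 CPM in saline (median 69.1) and 48.4 to 64.8 CPM in betamethasone (median 57.0). The highest betamethasone library reached the lowest saline one, and the rest lay below. The log2 change was −0.26 ± 0.08 (edgeR adjusted p = 0.134, DESeq2 adjusted p = 0.0372). In the other regions its change was 0.14 ± 0.12 in aDG, 0.00 ± 0.12 in pDG and 0.29 ± 0.17 in BLA, all short of the threshold. The BLA value was 0.05 without BLA betamethasone replicate 3, the library with 561 CPM. ENSMFAG00000041121 had −0.71 ± 0.23 in ACC (edgeR adjusted p = 0.174). ENSMFAG00000002663 had the lowest p among higher values there, 0.53 ± 0.24 (edgeR adjusted p = 0.295).

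In 2 cases the treatment groups did not overlap. In aDG, ENSMFAG00000032486 had 3.84, 6.08, 5.41, 4.15 and 4.47 CPM with betamethasone and 6.36 to 11.3 CPM with saline (median 7.37), as 0.260% of all genes had every betamethasone library lower. Its log2 change was −0.71 ± 0.19 (edgeR adjusted p = 0.713). In BLA, ENSMFAG00000017146 had 28.3, 37.3, 29.7 and 46.0 CPM with betamethasone and 3.57 to 26.0 CPM with saline (median 22.3), as 0.700% of all genes had every betamethasone library higher. Its log2 change was 1.02 ± 0.42 (edgeR adjusted p = 0.482), and 0.79 without BLA saline replicate 5, which held the 3.57 CPM. Neither passed the test. No member was separate in the other direction in aDG (0.150% of all genes) or BLA (260 of 17293 genes), nor in either direction in pDG (0.353% lower, 0.445% higher) or ACC (0.665% lower, 0.677% higher).

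ENSMFAG00000017146 had higher betamethasone values in each region. The log2 change was 0.55 ± 0.26 in aDG, 0.58 ± 0.27 in pDG and 0.25 ± 0.24 in ACC, beside 1.02 in BLA, with edgeR adjusted p of 0.482 to 1. ENSMFAG00000002663 was the other member above 0 in all 4 regions (18.4% of all genes). Below 0 in all 4 regions were 7 members (18.1% of all genes), picked out after their values were seen. In 3 of the regions the sign was taken against saline libraries that chose the members, so nothing is read from this count against that share. They were ENSMFAG00000000316, ENSMFAG00000000639, ENSMFAG00000001996, ENSMFAG00000004023, ENSMFAG00000032486, ENSMFAG00000041121 and ENSMFAG00000041988. Their median log2 change was −0.59 in aDG, −0.57 in pDG, −0.46 in BLA and −0.47 in ACC. The BLA value depended on BLA saline replicate 5. Their BLA changes ran from −0.75 to −0.26 with that library and from −0.96 to −0.36 without it, each farther from 0. Regions may share animals, so 4 equal signs are not 4 independent observations.

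The share of mapped reads outside genes had a lower group median with betamethasone in 3 regions. The median was 28.6% with betamethasone and 30.4% with saline in ACC, 29.6% and 31.1% in pDG, 31.2% and 33.2% in BLA, and 33.0% in both aDG groups. With that share as a covariate, all 7 members were again below 0 in all 4 regions, and 0 members passed the edgeR threshold in any region. The changes of these members were nearer 0 in ACC, in aDG and slightly in pDG, but farther from 0 in BLA. ENSMFAG00000041121, for example, went from −0.71 to −0.40 in ACC and from −0.46 to −0.49 in BLA. The BLA fit kept BLA saline replicate 5, which had the highest share of all libraries (37.2%) and low values of 15 members. No covariate fit was run without it, so the different direction in BLA may rest on that library. The part of this share in the changes was not tested further.

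**Figure D4:**
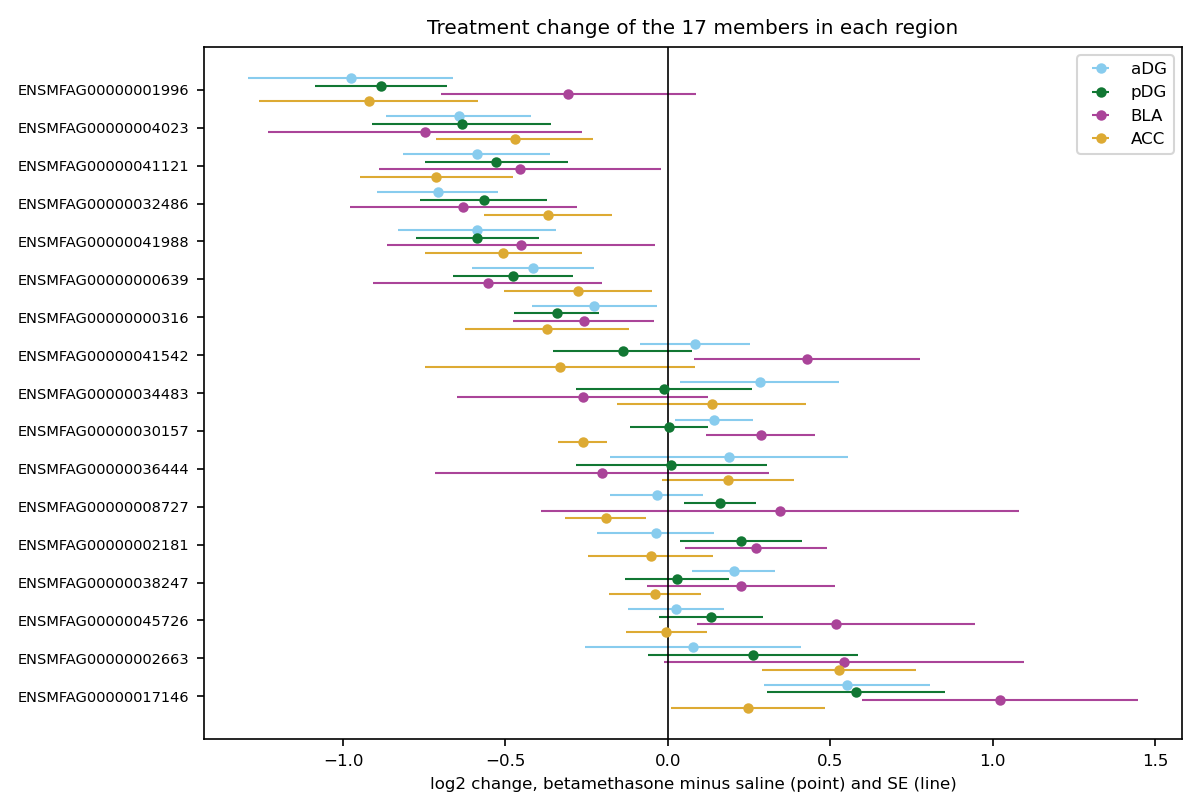
Log2 change with betamethasone in each of the 4 regions for each member (points, with the SE as a line), ordered by the mean over regions. The upper members lie left of 0 in all regions, ENSMFAG00000017146 lies right of it, and no edgeR change passed the adjusted threshold.

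When the regions were averaged within 10 sets of libraries built from the title numbers (4 betamethasone, 6 saline), 0 members passed limma's test of log2 CPM, as did 0% of all genes. At an unadjusted p under 0.05 there were 3 members with lower values and 1 with a higher value, against 8.26% of all genes in either direction. The higher one was ENSMFAG00000017146, with 0.74 ± 0.25 (limma adjusted p = 0.445). The lowest p of the lower ones was that of ENSMFAG00000032486, with −0.50 ± 0.17 (limma adjusted p = 0.424). The sets are a reading of the title numbers and are not stated in the labels. By this reading aDG saline replicate 5 and BLA saline replicate 5 fell in 1 saline set. For ENSMFAG00000017146 these were the lowest libraries of their groups (13.7 and 3.57 CPM), so its set difference leans on that set. Without that set 0 members passed.

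The members differed in how much they varied between libraries of a group. ENSMFAG00000030157 and ENSMFAG00000038247 varied least, with a median within-group SD of 0.21 and 0.22 on the log2 scale. ENSMFAG00000036444 and ENSMFAG00000002663 varied most, with 0.63 and 0.60. Among the 12713 genes with a mean of at least 2 CPM, these SDs ranked from the 48.4th percentile for ENSMFAG00000030157 to the 97.6th for ENSMFAG00000036444. By group, the median SD over members was 0.88 in BLA saline, which holds replicate 5, and 0.27 to 0.42 in the other 7 groups.

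Within groups, the members did not move as 1 block. Deviations from group means of log2 CPM were correlated for the 136 pairs of members, as a description, since libraries share depth, composition and possibly animals. Over all 44 libraries the median Pearson r was 0.38, and 35.3% of pairs were above 0.5 (all gene pairs, 7.08%). Without BLA saline replicate 5 the median r was 0.0035, and 22.8% of pairs were above 0.5 (all gene pairs, 7.86%). That single library thus set the median.

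Of the 31 pairs above 0.5 in the 43 libraries, 29 lay among 9 members, grouped after their values were seen. The grouping joined members linked, directly or through others, by r above 0.5 in these same libraries. High r among the 9 is therefore part of the choice. The 9 were the 7 members below 0 with betamethasone in all 4 regions, with ENSMFAG00000034483 and ENSMFAG00000036444. Their 36 pairs had r of 0.30 to 0.90 (median 0.63). The strongest pair was ENSMFAG00000041121 and ENSMFAG00000041988, with 0.90. The 72 pairs between the 9 and the other 8 members could not exceed 0.5, since such a pair would have joined the group. Their median r was −0.28. The most negative pair was ENSMFAG00000004023 and ENSMFAG00000017146, with −0.60.

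The other 2 linked pairs were ENSMFAG00000002181 with ENSMFAG00000008727, and ENSMFAG00000017146 with ENSMFAG00000045726, each with r of 0.54. Deviations of the share of reads outside genes had r of 0.05 to 0.36 with the 9 members (median 0.26) and of −0.29 to 0.09 with the other 8 (median −0.23) over the 43 libraries. Spearman's rho was 0.07 to 0.33 and −0.22 to 0.15. Without the 2 libraries farthest in that share, pDG saline replicate 4 and ACC saline replicate 3, r was −0.00 to 0.26 and −0.26 to 0.22. The part of this share in the linked pattern was not tested.

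**Figure D5:**
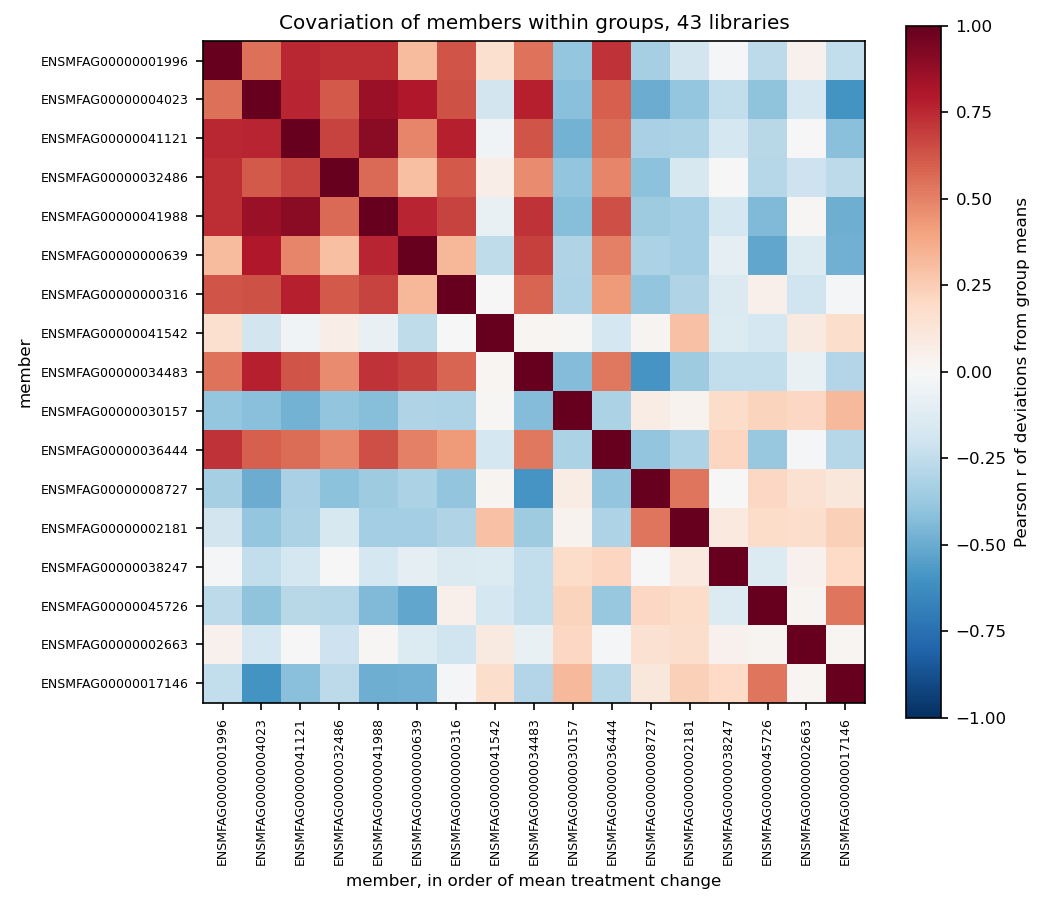
Pearson r between members of their deviations from group means of log2 CPM, over 43 libraries without BLA saline replicate 5. Members are ordered on both axes by mean treatment change over regions. The 9 linked members, not all adjacent in this order, have positive r of 0.30 to 0.90. Their pairs with the other members have a median of −0.28.

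Over all 44 libraries with region differences kept in, ENSMFAG00000041542 was most like ENSMFAG00000002181 and ENSMFAG00000038247 (both Pearson r 0.92 of log2 CPM). ENSMFAG00000038247 was most like ENSMFAG00000017146 (0.93) and ENSMFAG00000041542 (0.92). Without BLA saline replicate 5 the ranking changed. ENSMFAG00000041542 was then most like ENSMFAG00000002181 and ENSMFAG00000030157 (both 0.94 over 43 libraries), and so was ENSMFAG00000038247 (both 0.94). The points include the region differences on which these members were selected.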

How the data were processed

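The authors deposited a table of raw read counts per gene for every one of the 44 libraries. They used STAR, per the submitters' processing notes. The STAR version, build and annotation were not given in the sources used here. The count column of the strand with most gene reads in every library was used (ratio to the other strand 51.7 to 79.3). Rows that name no gene were dropped (unmapped reads 11.0% to 31.4%), and repeated identifiers were summed. CPM is the count per 1000000 gene reads. Depth was 28449737 to 83322595 gene reads.

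The labels give the region and treatment of each group, and replicate numbers follow accession order. The main test was edgeR 4.0.16 (R 4.3.3) with TMM scaling, robust quasi-likelihood fits over all genes kept by filterByExpr (count of at least 10, total of at least 15) and Benjamini-Hochberg adjustment at 0.05. The region differences came from 1 fit of the 20 betamethasone libraries, and the treatment comparisons from 1 fit per region. The fits were tested on simulated counts with known changes. DESeq2 1.42.0, upper-quartile scaling, no filter, unstranded counts, a block by title-number set and libraries left out in turn were alternatives, and limma 3.58.1 tested set means. A constant of 0.1 CPM was added before log2. Beyond all 17 members, identifiers were named by rule: at most 2 per direction with the lowest p, the largest or smallest difference, the most reads, the widest and narrowest separation, and the most and least variation. The members, lists and tests were chosen with earlier results of these data known.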

Additional observations from a re-analysis of the deposited data

Results flagged for a closer look

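In the 14 members named by rule, 112 groups of 4 to 6 libraries were checked for 1 library far from the rest, and 10 stood apart by the gap to the nearest library over the range of the group. Chance marks about 1 in 20 groups in this way. Of these, 3 were in BLA saline replicate 5, where ENSMFAG00000002663 had 0.375 CPM (other 5 libraries 6.64 to 9.43), ENSMFAG00000008727 had 1.78 CPM (120.1 to 179.9) and ENSMFAG00000038247 had 9.62 CPM (29.5 to 39.2).

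ACC betamethasone replicate 4 stood apart in both directions, with 3.13 CPM of ENSMFAG00000036444 (others 5.35 to 6.28) and 11.3 CPM of ENSMFAG00000038247 (others 6.46 to 7.58). In pDG, ENSMFAG00000000316 was low in saline replicate 4, with 34.4 CPM against 49.8 to 54.1, and ENSMFAG00000002663 was low in betamethasone replicate 1, with 2.65 CPM against 7.47 to 8.34. In aDG, 3 members had a high library. ENSMFAG00000000639 had 14.3 CPM in betamethasone replicate 5 (others 8.37 to 9.45), ENSMFAG00000008727 had 159 CPM in betamethasone replicate 2 (others 109.5 to 119.5), and ENSMFAG00000032486 had 11.3 CPM in saline replicate 3 (others 6.36 to 7.97).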

How the results depend on the processing

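The 17 members lower in ACC than in pDG, BLA and aDG in betamethasone, and the 1 differing between BLA and pDG, gave equal counts under DESeq2, upper-quartile scaling, no filter, unstranded counts, the title-number set as a replicate block and each library left out. Between aDG and pDG the count of 0 became 1 with DESeq2, 1 with upper-quartile scaling, 2 with the block (the labels do not give the pairing) and 0 to 1 with a library left out (1 without BLA betamethasone replicate 3). With treatment it became 1 with DESeq2 in pDG and in ACC. Each was 0 with a library or set left out. The rule's 17 members became 3 with BLA saline replicate 5 kept, 2 at a 3-fold gap, 68 at 1.5-fold, and 16 to 32 with a library left out (32 without ACC saline replicate 3, 28 without BLA saline replicate 4). With unstranded counts the rule named 15 genes, of which 14 were among the 17. The 14 members at least 2 times apart in betamethasone became 13 with unstranded counts and 14 to 15 with a library left out. For single members, 1149 of 1156 values kept their direction and side of the threshold, 7 newly passed it, and 0 reversed. These values include the large ACC differences from pDG and BLA of the 14 members named by rule. The total therefore says little about the small changes. The causes were not tested. The title-number set means, the alternatives for the betamethasone gap, the covariation and likeness without BLA saline replicate 5 and the gap without aDG saline replicate 5 were chosen after seeing the data. Each treatment comparison had 4 to 6 libraries per group. The part of depth in the few calls was not tested.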
